A study of Rattus norvegicus with 96 samples.

Results

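The cytosolic ribosomal protein genes were followed in the whole blood of rats that had inhaled crystalline silica or air. Members were the array probes whose file symbol has the form of a cytosolic ribosomal protein name (Rpl, Rps or Rplp with a number, without the Rps6k kinases) and whose detection p was under 0.05 on at least 4 of 96 arrays, with the brightest probe kept for a gene. This gave 66 genes of the 12306 genes tested, 39 of the large subunit and 27 of the small subunit. No silica-against-air difference was used to choose them. The animals were male rats of strain CDF Fisher 344, 3 months old, with 1 array per rat of total blood RNA depleted of globin mRNA. Rats inhaled air or silica for 6 hours a day on 5 days. The 15 mg/m3 set held 8 rats on silica and 4 on air for each of weeks 0, 1, 2, 4, 8 and then 16 after exposure. The 1 mg/m3 set and the 2 mg/m3 set each held 8 rats on silica and 4 on air. The rats of the 1 mg/m3 and 2 mg/m3 sets were killed 16 hours after exposure ended, a time the labels name week 0. For the 15 mg/m3 set the labels give the week and no hours. All 16 groups share strain, sex, labelled age and RNA preparation, and the labels name a separate rat for each sample.

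Ribosomal proteins bind ribosomal RNA to form the small subunit, which reads the mRNA, and the large subunit, which joins amino acids. Their mRNAs are among the most abundant in a cell. In vertebrates they typically start with a run of pyrimidines, the terminal oligopyrimidine (TOP) tract, through which the mTOR pathway controls their translation. In blood they come from white cells and from reticulocytes, the young red cells that still carry RNA. Lymphocytes are rich in them relative to neutrophils. In RNA from whole blood, fewer cells of a type and less RNA per cell cannot be told apart.

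The start regions of 6 members that carry the results below are shown for the runs of pyrimidines at or near their annotated starts. Each stretch runs from 60 bases before to 20 bases after the start annotated for its promoter, in the direction of transcription. That start is the annotated start named below. The stretch is taken from RefSeq, build GRCr8. Capitals mark the longest run of C and T within the 20 bases on either side of the start. Runs were cut at the edges of that window.
Rpl13a, chr1:104748894-104748973, minus strand: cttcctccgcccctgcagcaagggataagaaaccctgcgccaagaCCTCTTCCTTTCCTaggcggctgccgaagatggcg
Rpl13, chr19:68062454-68062533, plus strand: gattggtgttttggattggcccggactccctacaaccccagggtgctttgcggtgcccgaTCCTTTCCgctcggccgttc
Rps3, chr1:163195757-163195836, minus strand: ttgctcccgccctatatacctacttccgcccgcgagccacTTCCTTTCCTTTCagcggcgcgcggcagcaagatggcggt
Rpl3, chr7:113507971-113508050, minus strand: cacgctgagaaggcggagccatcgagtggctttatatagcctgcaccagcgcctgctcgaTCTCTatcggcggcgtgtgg
Rps7, chr6:50999426-50999505, minus strand: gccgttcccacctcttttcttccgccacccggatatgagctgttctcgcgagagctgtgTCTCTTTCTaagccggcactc
Rps12, chr1:23500015-23500094, plus strand: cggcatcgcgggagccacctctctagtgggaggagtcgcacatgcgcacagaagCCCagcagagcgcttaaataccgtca

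The marked run was 14 bases long in Rpl13a, 13 in Rps3 (cut by the window), 9 in Rps7 and 8 in Rpl13. It was 5 in Rpl3 and 3 in Rps12. It began at the annotated start in Rpl13 and Rpl3 and 1 base before it in Rps7. In Rpl13a, Rps3 and Rps12 it lay wholly before the annotated start. The reference spans of Rpl13a, Rpl13, Rps3, Rpl3 and Rps12 begin upstream of their printed stretches. Whether the capitals lie within an annotated mRNA therefore cannot be told from these starts, and they do not show a TOP tract. Of the 66 members, 51 matched the promoter table by symbol. Within the 20 bases on either side of the start, 36 of the 51 (70.6%) had a run of at least 8 C or T. Upstream runs were included, and the same share over all 33469 promoters in the table was 15.5%. The 7 letters CCGGAAG, searched on both strands from 250 bases before to 50 bases after the start, were present in 16 of the 51 (31.4%) and in 8.75% of all promoters. Of the 6 printed genes, Rps7 alone held these letters in that window. These counts describe the annotated starts and are not binding sites.

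Detection was near complete. Of the 66 members, 61 were detected on all 96 arrays. Just inside the rule were Rplp2, detected on 5 arrays, Rpl12 on 9 and Rps19 on 10, while Rpl5 was detected on 87 and Rps16 on 95. Just outside was Rpl10l, detected on 2 arrays, and Rpl11, Rpl34, Rpl38, Rps28 and another probe of Rpl36a were detected on 0. Among the brightest members by mean normalized log2 intensity were Rpl10 (14.48) and Rpl23a (14.42), and the dimmest were Rplp2 (4.96), Rps19 (5.02) and Rpl12 (5.02). Probes differ in brightness for the same amount of RNA, so these values do not order the genes by abundance. Within a group the SD of a member over rats was 0.135 at the median (0.071 to 0.27), against 0.163 for all genes tested. The beads of 1 array gave a median standard error of 2.71% of a member's intensity.

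Several probes may read more than one copy, since ribosomal protein genes have many processed copies in the rat genome and the probe sequences were not used here. By its transcript accession, the probe the file names Rpl37 now belongs to Rpl37l1 and the probe named Rpl36a to Rpl36al1. By Entrez ID, the Rpl12 probe belongs to Rpl12-ps1. For Rps4x and Rps27a the accession gives the gene itself and the Entrez ID a pseudogene. Values of these probes are given under the file's names and are uncertain as to locus.

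The arrays detected 7642 to 9970 of 21792 probes, with median intensities of 61.5 to 137. The labels name no chip. In the deposited table, runs of 12 neighbouring columns stand in for it, because arrays of different groups in the same run had a mean residual correlation of 0.14, against -0.02 in different runs. Runs 1 to 4 held all 24 air rats and 24 silica rats of the 15 mg/m3 set, 1 air rat and 1 silica rat of each week in each run. Runs 5 to 8 held the remaining 24 silica rats and no air rat of that set. Part of each silica-against-air difference at 15 mg/m3 therefore cannot be told apart from the column runs, except in runs 1 to 4. Blood markers were present as the label implies, with 19 of 20 T-cell, 21 of 24 neutrophil and 19 of 23 erythroid genes measured. Ltf of the neutrophil list and Pax5 of the B-cell list were detected on 0 arrays. Cd79a and Pou2af1 of the B-cell list, Gzmm of the NK list and Hba1 of the erythroid list had no probe of that name and were not measured, while the globin genes Hba-a1 and Hba-a2 were detected on 96 arrays.

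The first comparison asked whether ribosomal protein mRNAs differed between silica and air rats in the first 8 weeks after 15 mg/m3. None of the 66 was called at weeks 0, 1, 2, 4 or 8 (limma, Benjamini-Hochberg adjusted p under 0.05). Of all genes tested, 0.0163% were called at week 0, 0.39% at week 1, 0.0325% at week 2, 0.122% at week 4 and 0.268% at week 8. At an unadjusted p under 0.05 there were 5, 4, 3, 1 and 2 members in that order, while 9.08%, 11.2%, 9.09%, 9.39% and 9.24% of all genes passed that level. The median log2 fold change of the members, silica over air, was 0.03 at week 0, 0.00 at week 1, 0.03 at week 2, -0.03 at week 4 and 0.01 at week 8. The share of members at that level was below the share of all genes at each of these weeks. The size of the median depended on the scaling of the arrays: with each array scaled to its median it was 0.28, 0.16, 0.13, 0.14 and 0.24 at these weeks, of opposite sign at week 4.

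The members with the lowest p were mostly of the small subunit. At week 0, Rps24, a small-subunit protein whose gene is mutated in some patients with the inherited anaemia named after Diamond and Blackfan, was measured at 8.55, 8.84, 8.36 and 8.96 in the air rats. In the silica rats it ranged from 7.83 to 8.59 with a median of 8.19, so the groups overlapped. Its difference was -0.45 ± 0.150 (SE, adjusted p = 0.29, limma). Rps7, another gene of that disease whose protein also binds Mdm2, had the opposite sign. Its air rats were at 9.68, 10.65, 9.58 and 9.99 and its silica rats between 9.88 and 10.92 with a median of 10.37. That difference of 0.42 ± 0.143 had an adjusted p of 0.305 (limma). Without air rat 2, the highest of the 4, it was 0.65 with an adjusted p of 0.0254, and over the 12 refits without 1 rat it ran from 0.29 to 0.65. Rpl31 of the large subunit was next at week 0, with -0.28 ± 0.0964 (adjusted p = 0.322, limma).

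In the following weeks Rps24 had the lowest p at week 1 (-0.39, adjusted p = 0.272, limma) with Rps26 at 0.19 and Rpl19 at -0.15. At week 2 the lowest p was that of Rps10 (0.17 ± 0.057, adjusted p = 0.281, limma), followed by Rpl15 (-0.16) and Rps2 (0.20). At week 4 these were Rps16 (0.27, adjusted p = 0.513, limma), Rpl19 (-0.13) and Rps19 (-0.17). Air rat 1 decided these values for Rps16, which was 0.02 without it, and for Rps19, which turned to 0.12 (0.125). Without 1 of the other rats Rps19 stayed below 0. At week 8 they were Rps26 (0.21, adjusted p = 0.322, limma), Rpl31 (-0.24) and Rps24 (-0.29). Members reached both signs at each of these weeks.

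**Figure D1:**
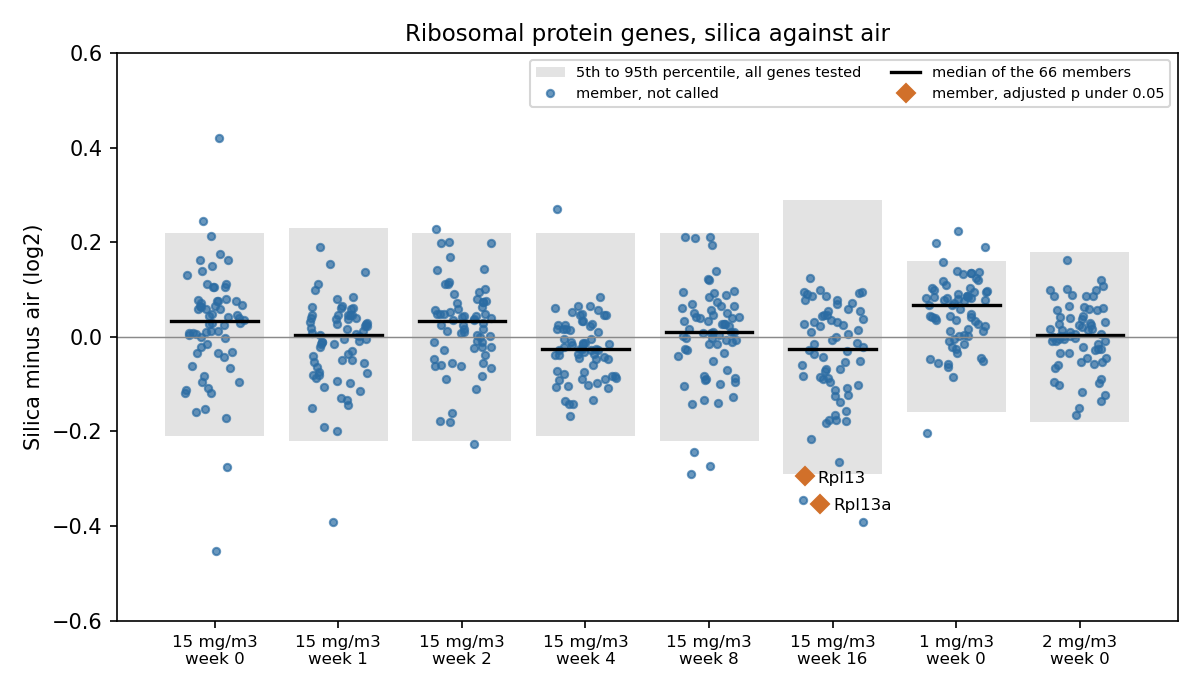
Silica-minus-air log2 fold change of the 66 members (1 point each) in each of the 8 comparisons, with the members' median and the 5th to 95th percentile of all genes tested. At week 16 of 15 mg/m3 the members lay between -0.39 and 0.12, and the called genes Rpl13a and Rpl13 are marked.

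At week 16 after 15 mg/m3, Rpl13a and Rpl13, both of the large subunit, were lower in silica rats, and no member was higher. The other 64 members did not pass the test. Among all genes tested, 1.7% were lower and 3.08% higher at the same threshold, so 2 of 66 lower is near the background share. At an unadjusted p under 0.05, 8 members passed, all lower in silica rats, against 18.3% of all genes. The median of the members was -0.03, with 28 of 66 above 0, and with median scaling it was 0.24.

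Rpl13a (chromosome 1, 104746223 to 104748975, build GRCr8) encodes a large-subunit protein that in human monocytes can leave the ribosome and silence inflammatory mRNAs. The week 16 air rats had normalized log2 values of 11.46, 11.44, 11.61 and 11.52. The 8 silica rats ranged from 10.94 to 11.29 with a median of 11.19. All silica rats lay below all air rats. The difference was -0.35 ± 0.0858 on the log2 scale (SE, 95% interval -0.52 to -0.18), a change of -21.8%, with an adjusted p of 0.00608 (limma). It was called in 12 of 12 refits that each left out 1 rat, with an adjusted p of at most 0.0477. Within the column runs that hold both groups it was -0.32 with an adjusted p of 0.0425 (limma). In a fit to the 12 arrays of this week alone the adjusted p was 0.0709. With each array scaled to its median in place of quantile normalization, the difference was -0.04 with an adjusted p of 0.948 (limma).

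Rpl13 (chromosome 19, 68062442 to 68065065) encodes another large-subunit protein that, despite its name, is no copy of Rpl13a. Its air rats were at 13.08, 12.86, 13.01 and 12.94. Its silica rats ranged from 12.44 to 12.86 with a median of 12.70, and the highest silica rat met the lowest air rat. The difference was -0.29 ± 0.0935 (95% interval -0.48 to -0.11), a change of -18.5%, with an adjusted p of 0.0470 (limma). This call was lost in 8 of 12 refits without 1 rat, with adjusted p between 0.0291 and 0.146. It was lost without air rat 1, 3 or 4 and without silica rat 2, 4, 5, 6 or 8. Within the column runs that hold both groups it was -0.27 with an adjusted p of 0.21, and with median scaling it was 0.02 with an adjusted p of 0.98 (limma).

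**Figure D2:**
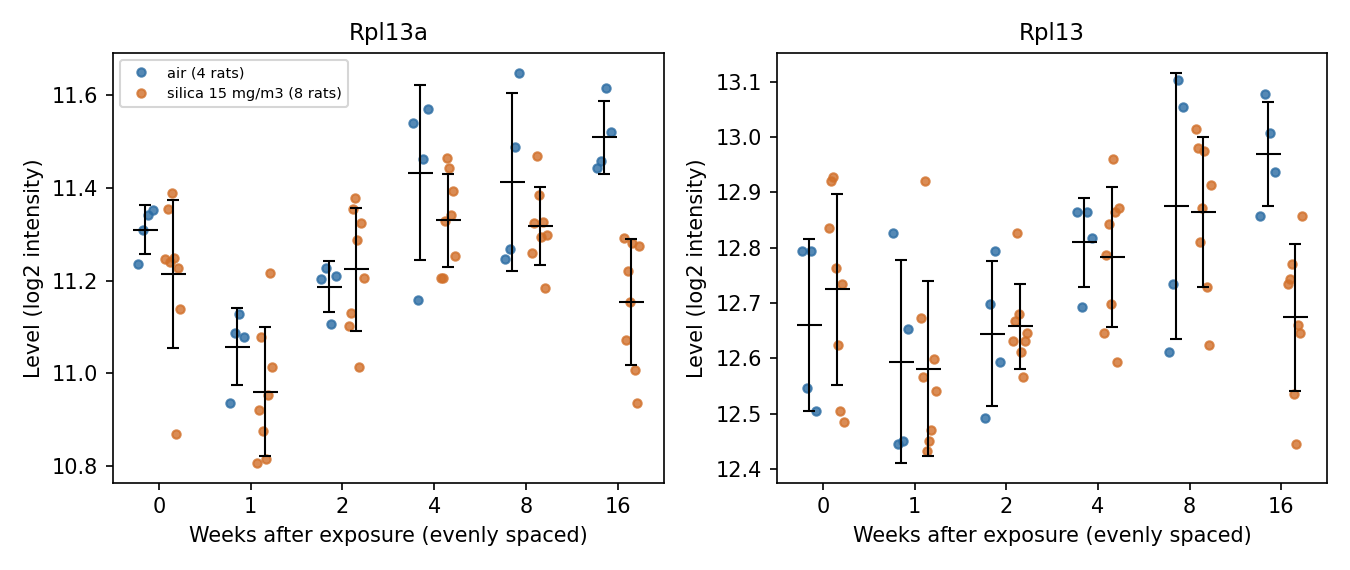
Normalized log2 intensity of Rpl13a and Rpl13 in each rat of the 15 mg/m3 set by week after exposure (evenly spaced), air and silica rats side by side, with black bars for the group mean and SD. At week 16 the Rpl13a values of silica rats (10.94 to 11.29) lay below those of the air rats (11.44 to 11.61), and those of Rpl13 met at 12.86.

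Over the weeks, the air rats' Rpl13a was 0.20 higher at week 16 than at week 0, and the silica rats' was 0.06 lower (-0.06). For Rpl13 these differences were 0.31 in air rats and -0.05 in silica rats. Of the members called over the weeks in air rats, these were the 2 whose difference had opposite signs in air and silica rats. Among the next members at week 16 by p were Rpl12 (-0.39 ± 0.145, adjusted p = 0.104), Rps15 (-0.26, 0.12), Rpl19 (-0.17, 0.133), Rps24 (-0.35, 0.185) and Rps21 (-0.22, 0.259), each adjusted p from limma. The Rpl12 probe was detected on 9 arrays in all, and its air values ran from 4.94 to 6.42. Its difference was -0.11 without air rat 3, and it passed in 3 of 12 refits, those that left out air rat 1 (-0.60), air rat 2 (-0.54) or silica rat 5 (-0.56).

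Among blood cell markers, it was mainly those of neutrophils that differed between the week 16 groups. Of 21 neutrophil genes, 14 were higher and 0 lower in silica rats, and their summed normalized intensity was 10200 to 14000 in air rats and 16700 to 27600 in silica rats. Of 19 T-cell genes 1 was lower, with sums of 18600 to 21200 and 16700 to 21900. Of 12 B-cell genes none was called, with sums of 3760 to 4480 and 3080 to 4140. Among NK and cytotoxic genes 1 of 11 was higher (9010 to 12600 and 8250 to 12200), and among monocyte genes 1 of 8 (3370 to 3850 and 3140 to 4800). None of 19 erythroid genes was called (158000 to 163000 in air, 152000 to 164000 in silica rats), nor any of 7 platelet genes (50700 to 51900 and 38800 to 52700). The part of these cells in the Rpl13a and Rpl13 differences was not tested.

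Proteins with known roles outside the bulk of the ribosome were also listed. The stalk, which recruits translation factors, is made of Rplp0, Rplp1 and Rplp2. Rplp0, which the file carries as Arbp and the naming pattern therefore missed, had a week 16 difference of -0.07, and 0 of the 3 were called. Rpl5, which with Rpl11 and a small ribosomal RNA holds Mdm2 in check, was not called, with a median of 5.22 in air rats and 5.24 in silica rats at week 16. Of the 8 measured genes among 9 that are mutated in Diamond-Blackfan anaemia, 0 were called at week 16, with a median difference of -0.06. Rps6, the substrate of S6 kinase, Rps14, whose reduced dose contributes to the anaemia of the human 5q deletion, Rps27a, made as a fusion with ubiquitin, Rps4x, and Rpl3l, the muscle form of Rpl3, were called in none of the 8 silica-against-air comparisons. The lowest adjusted p among these and Rplp1, Rplp2, Rpl5 and Rps19 was 0.397, for Rpl3l (limma).

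The mean of the 6 weekly silica-minus-air differences at 15 mg/m3, a contrast added after the data were seen, combined 24 air rats and 48 silica rats. Rps24, Rpl31, Rpl13a, Rpl19 and Rps3 were lower in silica rats, and the small-subunit members Rps14 and Rps7 were higher. In all 7 of 66 members were called, 5 lower and 2 higher, against 5.08% of all genes lower and 6.31% higher. Their median was -0.001 and that of all genes 0.001, and with median scaling these were 0.193 and 0.063. Rps24 differed by -0.30 ± 0.0612 (adjusted p = 0.00032) and Rpl31 by -0.17 ± 0.0394 (adjusted p = 0.00157), each below 0 in 6 of 6 weeks (limma). Rpl13a differed by -0.12 ± 0.035 (adjusted p = 0.0178, below 0 in 5 weeks). Rpl19 was at -0.09 (adjusted p = 0.0245, below 0 in 4 weeks) and Rps3, which also takes part in DNA repair, at -0.11 (adjusted p = 0.0408, below 0 in 5 weeks). Rps14 was higher by 0.08 ± 0.0268 (adjusted p = 0.0311) and Rps7 by 0.17 ± 0.0586 (adjusted p = 0.0401), each above 0 in 6 of 6 weeks (limma). In 72 refits that each left out 1 rat, Rps24, Rpl31, Rpl13a and Rpl19 passed in 72, Rps14 in 70, Rps3 in 56 and Rps7 in 55. With median scaling Rpl13a, Rpl19 and Rps3 turned to 0.06, 0.11 and 0.10, and Rps24 (-0.16) and Rpl31 (-0.01) no longer passed, while Rps14 and Rps7 did (Rps14 with adjusted p = 0.0226 and Rps7 with 0.0238, limma).

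None of these 7 calls held within the column runs that air and silica rats share. With the column run as a fixed block 0 members and 570 of all genes were called, and with runs 1 to 4 alone 0 members and 325 genes, against 7 members and 1402 genes without a block. With the run as a random block 3 members, Rpl13a, Rpl31 and Rps24, and 819 genes were called. Rps24 had a mean of 8.64 ± 0.169 (SD, n = 24) in air rats, 8.55 ± 0.218 in the silica rats of runs 1 to 4 and 8.14 ± 0.211 in the silica rats of runs 5 to 8. The low Rps24 values of the set thus lay in the silica rats of runs 5 to 8, which held none of its air rats. Those runs did hold the rats of the lower doses, where Rps24 averaged 8.03 in air rats and 7.98 in silica rats at 1 mg/m3, and 8.28 and 8.16 at 2 mg/m3. With the run as a fixed block the 15 mg/m3 difference was -0.09 with an adjusted p of 0.369 (limma).

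Rpl31, Rps14 and Rpl19 also differed between the silica rats of both sets of runs. Rpl31 averaged 9.30 in air rats, 9.21 in silica rats of runs 1 to 4 and 9.05 in those of runs 5 to 8. Rps14 averaged 14.34, 14.35 and 14.49 in that order, and Rpl19 13.50, 13.45 and 13.36. With the run as a fixed block Rpl19 was at -0.05 (adjusted p = 0.427, limma). For Rpl13a, Rps3 and Rps7 the silica rats of both sets of runs lay close to each other. Rpl13a averaged 11.32 in air rats, 11.22 in silica rats of runs 1 to 4 and 11.18 in those of runs 5 to 8. Rps3 averaged 13.02, 12.91 and 12.91. Rps7 averaged 10.36, 10.52 and 10.54. In the fit with the run as a fixed block these were -0.10 for Rpl13a (adjusted p = 0.0888), -0.12 for Rps3 (adjusted p = 0.125) and 0.16 for Rps7 (adjusted p = 0.164, limma).

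**Figure D3:**
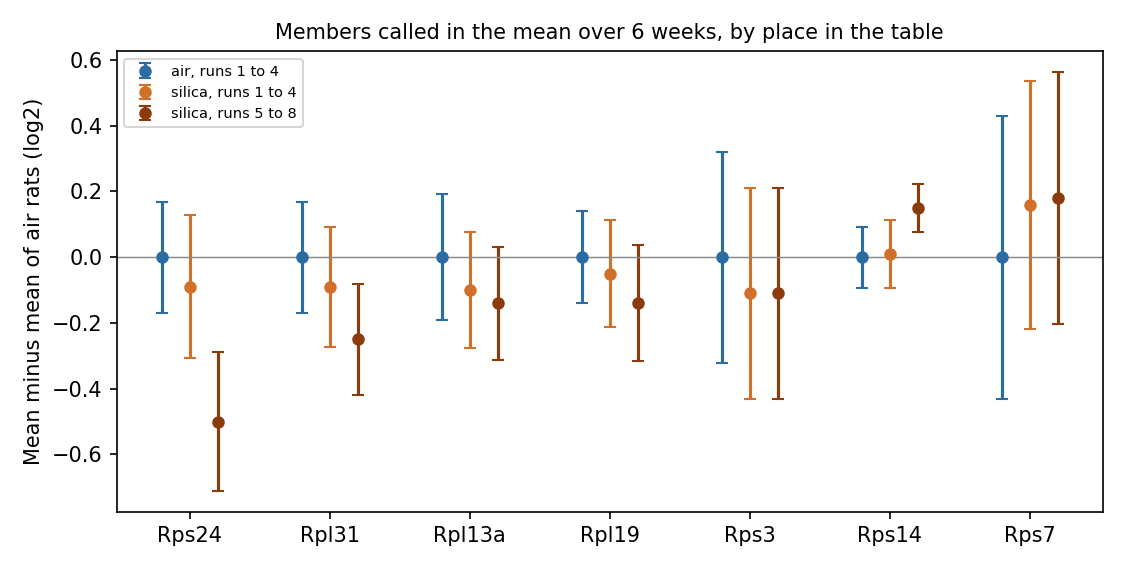
Mean normalized log2 intensity of the 7 members called in the mean over the 6 weeks, minus the mean of the air rats, with the SD over rats as bars, for 24 air rats (runs 1 to 4), 24 silica rats of runs 1 to 4 and 24 silica rats of runs 5 to 8. Rps24 stands lowest in the silica rats of runs 5 to 8 (mean level 8.14), whereas Rps3 has the same mean level (12.91) in both sets of silica rats.

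The silica effect was not shown to differ between weeks for any member. In the test of the effect over the 6 weeks, 0 of 66 members and 0.146% of all genes were called, and at an unadjusted p under 0.05 there were 0 members against 10.7% of all genes. The lowest p was that of Rpl13a (adjusted p = 0.494, limma), followed by Rps10, Rps26, Rps15 and Rpl13. In the direct test of week 16 minus week 0, 0 members and 0% of all genes were called. Without adjustment 3 members passed, against 6.2% of all genes: Rps15 (-0.41 ± 0.144), Rpl13 (-0.36 ± 0.132) and Rpl13a (-0.26 ± 0.121), with a lowest adjusted p of 0.634 (limma). The call of Rpl13a and Rpl13 at week 16 alone is therefore not shown to be particular to that week.

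At the lower doses no member was called. At 1 mg/m3, 0 of 66 members and 0% of all genes passed. At an unadjusted p under 0.05 there were 3 members and 2.54% of all genes: Rpl35 (0.12), Rpl10 (0.16) and Rpl22 (0.13), each with an adjusted p of 1 (limma). The median of the members was 0.07, with 52 of 66 above 0, and that of all genes was 0.00. With median scaling these were 0.29 and 0.12 (0.125). At 2 mg/m3, 0 members and 0% of all genes were called, with 0 members against 4.71% of all genes at the unadjusted level and a member median of 0.00. Rpl13a (-0.17), Rps3a (0.10) and Rpl22 (0.12) had the lowest p, each with an adjusted p of 1. In the test of the silica effect over the 3 doses at week 0, 0 members and 0% of all genes were called, with 1 member against 2.84% of all genes without adjustment.

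The air rats were then compared among the 6 weeks, to see which members differed in rats that were given no silica. Some members were higher and others lower at week 16 than at week 0, with Rps29 2.04-fold higher and Rpl3 1.83-fold lower. Of the 66 members, 25 were called (37.9%), against 31% of all genes tested, 17 of the 39 large-subunit and 8 of the 27 small-subunit members. From week 0 to week 16, 9 of these 25 were higher and 16 lower. With median scaling 2 members and 0.715% of all genes were called, the members being Rpl37 (adjusted p = 0.0135) and Rps29 (adjusted p = 0.0421, limma). With the 24 air arrays alone 16 members and 2600 genes were called, against 3814 genes in the fit to all arrays. Each of runs 1 to 4 held 1 air rat of each week. Week, the rats' age and the day of work-up cannot be told apart.

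The largest rises in air rats were those of Rps29 and the probe named Rpl37. Rps29, a zinc-binding small-subunit protein (chromosome 6, 93371293 to 93372731), was at 11.98, 11.82, 12.52 and 11.62 at week 0. At week 16 its air rats were at 13.09, 12.92, 13.04 and 13.01, all above the rats of week 0. Its difference was 1.03 ± 0.187 in air rats and 0.92 ± 0.132 in silica rats. The probe named Rpl37 was at 11.94, 12.99, 12.06 and 12.32 at week 0 and at 13.46, 13.38, 13.28 and 13.03 at week 16. Its rise was 0.96 ± 0.162 in air rats and 0.62 ± 0.115 in silica rats. It was no steady climb, since the group means of its air rats were 12.33, 12.17, 12.12, 13.26, 12.74 and 13.29 over the 6 weeks in order.

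The largest fall was that of Rpl3, a large-subunit protein that reaches towards the site of peptide bond formation (chromosome 7, 113491943 to 113508115). Its air rats were at 12.02, 11.89, 12.23 and 12.09 at week 0 and at 11.39, 11.24, 11.04 and 11.08 at week 16, without overlap. The fall was -0.87 ± 0.136 in air rats and -0.77 ± 0.0964 in silica rats. The air means of Rpl3 were 12.06, 12.04, 11.88, 11.66, 11.43 and 11.19, lower at each later week. Rps3 (chromosome 1, 163190476 to 163195885) was at 13.61, 12.90, 13.45 and 13.40 at week 0 and at 12.85, 12.59, 12.46 and 12.71 at week 16. Its difference was -0.69 in air rats and -0.67 in silica rats, again with no overlap between the air rats of both weeks. Rpl27 fell by 0.57 in air rats and by 0.55 in silica rats.

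The silica rats of the same weeks, a comparison added after the data were seen, share no animal with the air rats and number 8 per week against 4. In them 48 of 66 members were called (72.7%), against 45.9% of all genes, and 23 members were called in both. These 23 are 92% of the members called in air rats and 47.9% of those called in silica rats. With median scaling 9 of 66 members and 22% of all genes were called in silica rats. The share of members was then below that of all genes, so its excess rests on the scaling. Of the 25 members called in air rats, 23 had the same sign of week 16 minus week 0 in silica rats. Over the 66 members, week 16 minus week 0 in air and in silica rats correlated at Pearson's r 0.91 and Spearman's rho 0.83, and over all genes at Pearson's r 0.76. The members share arrays and column runs, so these correlations are descriptions. The adjusted p over the weeks, in air and then in silica rats, was 1.23e-10 and 1.36e-17 for Rpl37, 1.46e-08 and 1.27e-17 for Rpl27, 7.19e-08 and 1.52e-16 for Rps3, and 1.93e-07 and 1.38e-12 for Rpl3 (limma).

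**Figure D4:**
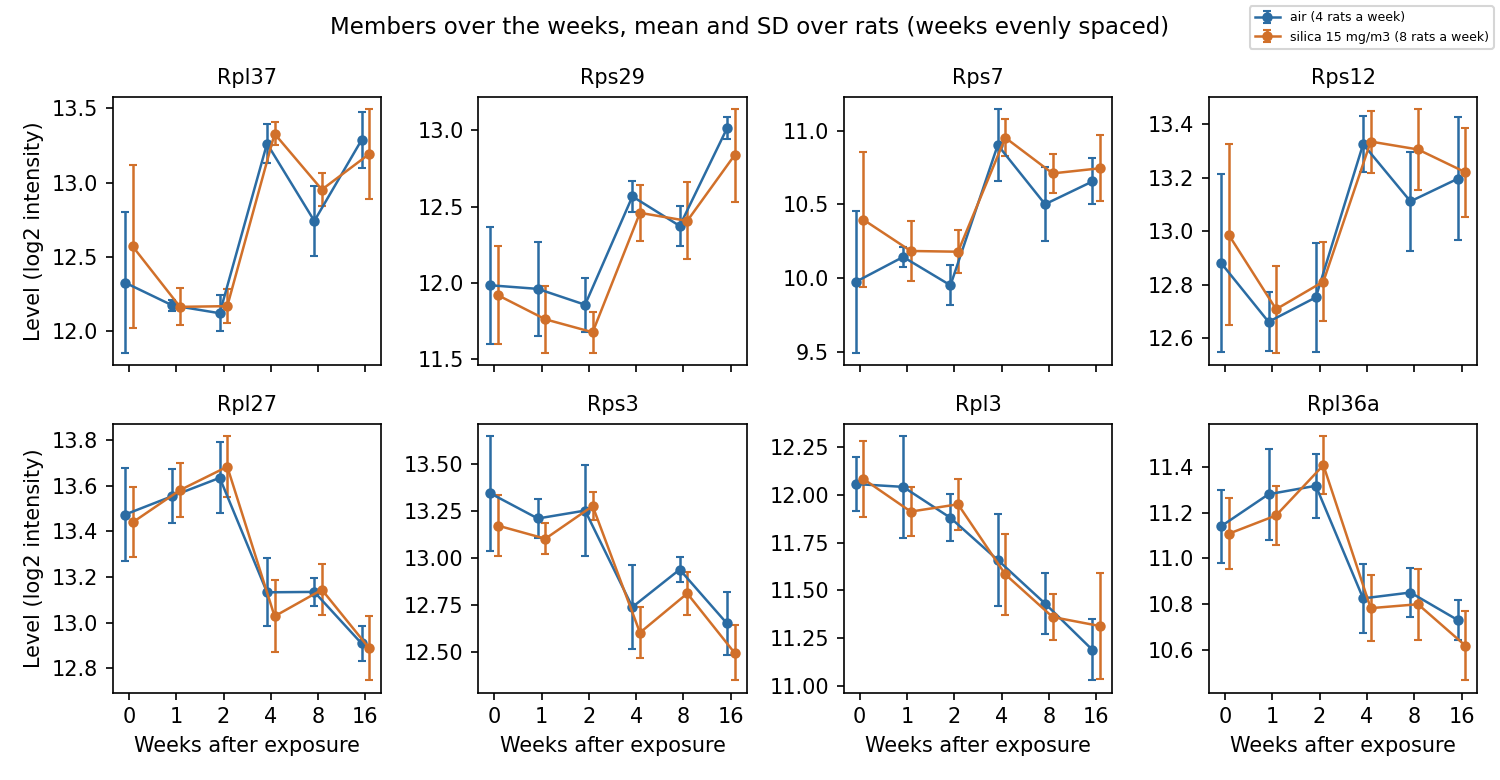
Mean normalized log2 intensity (points) and SD over rats (bars) of the 8 members with the lowest p over the weeks in air rats, by week after exposure in the 15 mg/m3 set (weeks evenly spaced), for 4 air rats and 8 silica rats a week. Rpl37 and Rps29 were higher at week 16 than at week 0 and Rpl3, Rps3 and Rpl27 lower, in air and silica rats alike.

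Smaller changes over the weeks went both ways. Rps7 was 0.68 higher in air rats and 0.35 in silica rats (adjusted p over the weeks 1.52e-06 and 2.9e-09), and Rps12 0.32 and 0.23 (3.95e-05 and 3.55e-10, limma). Rps6 was at -0.47 and -0.28, Rpl8 at -0.41 and -0.55, and the probe named Rpl36a at -0.41 and -0.49. Under median scaling, without background correction and in the authors' values, Rpl37, Rpl27, Rps3, Rpl3, Rps29, Rps7, Rpl36a and Rps12 kept these directions in both air and silica rats. The adjusted p over the weeks in silica rats was 0.711 for Rps14 and 0.681 for Rpl41 (limma).

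**Figure D5:**
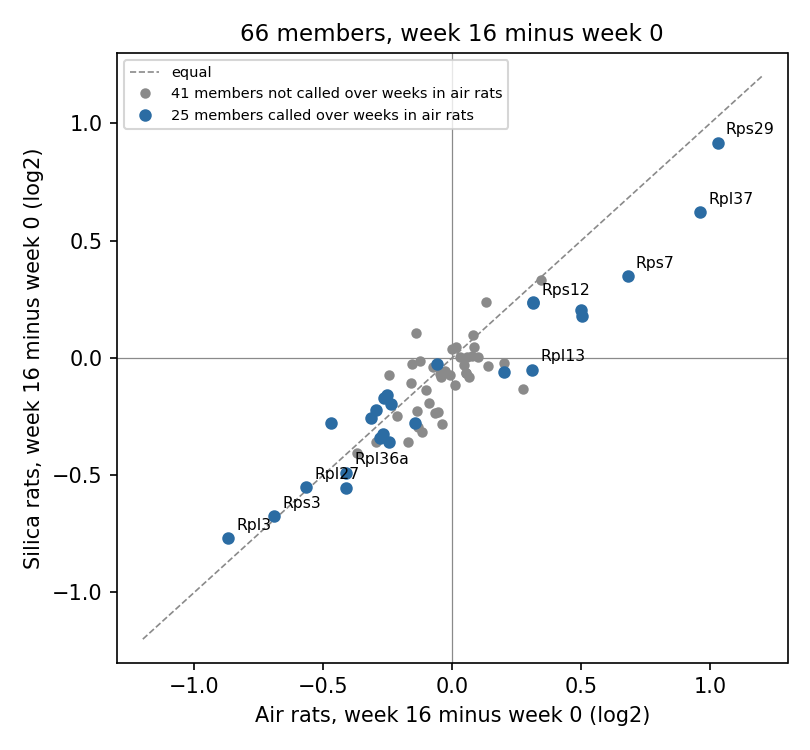
Week 16 minus week 0 of each of the 66 members in air rats (horizontal) against silica rats of the 15 mg/m3 set (vertical), both as log2 differences, with the line of equality dashed and the 25 members called over the weeks in air rats in blue. Rps29 and Rpl37 stand at the upper right and Rpl3 and Rps3 at the lower left. Rpl13 is at 0.31 and -0.05.

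Some cell-type markers also moved over the weeks. The summed normalized intensity of the 19 T-cell genes in air rats was 24100 to 29700 at week 0 and 18600 to 21200 at week 16. In air rats 14 of 19 T-cell, 10 of 19 erythroid, 9 of 21 neutrophil and 0 of 12 B-cell genes were called over the weeks. The share of all genes was 31%. In silica rats these were 16, 14, 18 and 5, against 45.9% of all genes. Counts over the weeks for the NK, monocyte and platelet lists are not reported here. The part of these cells in the members' changes was not tested.

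Genes that act with the ribosomal proteins were also followed at week 16, when 1.7% of all genes were lower and 3.08% higher. Of 8 genes of elongation factors and associated proteins, Eef1e1, Eef2k and Eef1akmt1 among them, 0 were called, with Eef2 at 0.11 and Eef1a1 at 0.09. Of 25 initiation factor genes, 2 were lower: Eif4e2, a cap-binding repressor of translation (-0.24, adjusted p = 0.0138), and Eif2b1, a subunit of the exchange factor of Eif2 (-0.30, adjusted p = 0.0212, limma). Of 17 genes with TOP mRNAs other than those of ribosomal proteins 1 was higher, the intermediate filament gene Vim (0.37, adjusted p = 0.0323, limma). The TOP list shares genes with the other lists here, among them Eef1a1, Eef2, Eif4b, Eif3e and Npm1, so the counts are not of separate sets. Of 47 ribosome assembly genes 1 was lower, Nob1, the nuclease that matures the small subunit's RNA (-0.32, adjusted p = 0.0222, limma). Of 19 genes of mTOR and ribosome control 0 were called, the lowest adjusted p being that of Eif4ebp2 (-0.39, adjusted p = 0.0646). Rpsa and Rack1, ribosomal proteins outside the naming pattern, were not called, with differences of -0.07 (adjusted p = 0.687) and 0.05 (adjusted p = 0.815, limma). Over the weeks in air rats 17 of the 25 initiation factors, 18 of the 47 assembly genes and 12 of the 19 control genes were called. So were 8 of the 17 listed TOP genes and 4 of the 8 elongation factor and associated genes. The share of all genes was the 31% given above.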

How the data were processed

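Blood RNA of 96 rats in 16 groups was measured on Illumina BeadChips, 1 array per rat. Per the file headers, the non-normalized values the authors deposited are, for each probe and array, an intensity, the standard error over its beads, a whole-number bead count and the detection p-value. BeadStudio is named in the submitters' processing notes. The authors also deposited normalized log2 values, for which the notes name limma and lumi. Their versions and transform are not given in the sources used here, and these values served as an alternative only.

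All computing used R 4.3.3, limma 3.58.1 and the data.table package (version 1.17.8). Intensities were corrected by normexp with a background inferred from the detection p-values and 16 as offset. Quantile normalization and then the log2 transform followed. The 626 probes whose detection p lay off its grid of 825 steps stayed out of the background estimate. The detection rule (p under 0.05 on 4 or more arrays) kept 12368 of 21792 probes, and the brightest probe per gene left 12306 genes. A linear model of group means covered the 96 arrays, with p adjusted by Benjamini-Hochberg over all genes and called under 0.05. The number of arrays limits the precision. The fit was tested on simulated data. Array names can be old: 16866 probes were named through Entrez IDs, 144 by symbol and 4782 by the file's own name.

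The members and gene lists were chosen with earlier results of these data known. Named were called members (up to 10 each way), the 3 of lowest p where fewer passed, the 5 of lowest p in interaction and week tests, a fixed set of known genes, the 3 brightest and dimmest, those at the detection limit, and up to 3 genes per other list; further names, and the promoters shown, were chosen after their values were seen. Same-numbered rats of silica and air groups correlated between -0.32 and 0.27 (32 pairs, median -0.025), so the numbers do not pair rats. Array pairs of the same group had correlations of 0.977 to 0.997, and no pair held identical values. Alternatives changed the background, offset, scaling, filter, probe choice, blocks and rats. Some named items are not reported here.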

Additional observations from a re-analysis of the deposited data

Results flagged for a closer look

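The mean of the members and some named members were checked for a rat far from the others by Dixon's criterion. There were 80 such checks, each over the 4 or 8 rats of 1 group. Chance alone gives about 1 such value in 20 checks. The 5 values found here, from 3 rats, are close in number to what that rate gives. Rat 2 of the silica 15 mg/m3 group at week 4 had a member mean of 12.41, above the next at 12.34. Its Rpl3 was also high, at 12.02 against the next rat at 11.65. Rat 6 of the silica 1 mg/m3 group had a member mean of 12.31, below the next at 12.4. Rat 3 of the silica 15 mg/m3 group at week 2 was low in Rpl3 (11.68, next 11.9) and in Rps3 (13.12, next 13.25). These rats were kept in all values above.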

How the results depend on the processing

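With each array scaled to its median in place of quantile normalization, the member medians were 0.276, 0.161, 0.131, 0.137, 0.241 and 0.244 at weeks 0, 1, 2, 4, 8 and 16 of 15 mg/m3, 0.292 at 1 mg/m3 and 0.193 for the mean of the 6 weeks. Medians of all genes were then 0.081, 0.035, 0.05, 0.036, 0.074, 0.107, 0.125 and 0.063 in that order, so the sign of the member median at weeks 4 and 16 and in the mean rests on the scaling. That setting called 0 members at week 16, 2 over the weeks in air rats (88 of all genes) and 9 in silica rats (2702 of all genes). It also turned Rpl13 at week 16 (0.016) and, in the mean of the 6 weeks, Rpl13a (0.061), Rpl19 (0.106) and Rps3 (0.096). All week 16 genes split 379 higher to 209 lower with quantile normalization and 107 to 1 with median scaling, and 430 to 263 in the authors' values. The 2 members called at week 16 became 1 with the authors' values, with no detection filter, with the replicate block, with the column run as a fixed or random block (correlation 0.121) and in shared runs alone, and 0 with the arrays of the comparison alone. The 25 members called in air rats over the weeks became 16 with the air arrays alone (2600 in place of 3814 genes) and 48 in the silica rats. The 7 members of the mean over weeks became 3 with the replicate block or a random block and 0 with a fixed run block or shared runs. The replicate block changed no other count of member calls by over 1.5 times. Leaving out 1 rat each gave 1 to 3 members at week 16, 0 to 1 at week 0 (Rps7, without air rat 2), 5 to 8 in the mean, 18 to 29 over the air weeks, and 0 in the other comparisons. The dose test could not be fitted within shared column runs. The causes were not tested. Of the alternatives for named members, 1582 kept their side of the threshold, of which 63 turned sign without a call. A further 42 fell below the threshold and 4 reversed, all for results called in the main fit. Most of the 1582 were for results not called there, so that count does not measure how well the calls held.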

Other observations

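Besides the 66 members, 81 other probes carry a ribosomal protein name of the same pattern only in the current reference, mostly copies and renamed loci. Of these, 58 passed the detection rule and were tested, and 18 were detected on 0 arrays. At week 16 of 15 mg/m3, 1 of the 58 was called: Rpl23al4 was lower in silica rats by 0.29 on the log2 scale (-0.285 ± 0.0748, adjusted p = 0.0123, limma). The median of the 58 at week 16 was -0.044. Over the weeks, 18 of the 58 (31%) were called in air rats, against 31% of all genes, and 25 (43.1%) in silica rats, against 45.9% of all genes. Residuals of the members over rats had a median pairwise correlation of 0.068, against -0.003 for 2000 other genes, which describes these arrays and carries no test.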
